A study of Mus musculus with 6 samples.

Results

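The caspase family was followed in immortal mouse melanocytes, pigment-producing cells of neural crest origin, through 8 member genes out of 22180 measured genes. The members were a fixed list: the inflammatory caspase genes Casp1, Casp4 and Casp12, the apoptotic caspase genes Casp2, Casp6, Casp8 and Casp9, and Casp14. All 8 were found, each with 1 probe set that carried 1 gene symbol. The members were selected on their log2 difference between the lines, which was already known when the list was drawn up, so their values are given as a description and without a test.

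The lines were compared on 6 arrays, 3 of each line. The control line, melan-Ink4a-Arf-1 (its labels add the name melan-a), carries Cdkn2a tm1RDp/tm1RDp and is wild type for Sox10. The other line, Sox10LacZ/+ on an Ink4a-Arf null background, came from mice 3 days of age and is called heterozygous here. By their labels both lines are mutant at the Ink4a-Arf locus (Cdkn2a), both stem from stock backcrossed to C57BL/6J, and both were grown with 10% serum, 200 nM of the phorbol ester TPA and 200 pM of cholera toxin. There was 1 line per genotype, and their effects cannot be told apart, and the labels do not say whether the 3 replicates were separate cultures, so a p-value reflects the spread among these arrays alone, which may be technical. Values are log2 signals after RMA, a method that corrects background and normalises between arrays, and differences are heterozygous minus wild type.

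Caspases are proteases that cut their targets after aspartate and are made as inactive precursors. The inflammatory caspases are switched on in inflammasomes, complexes in which a sensor protein, often through the adaptor ASC, gathers caspase molecules; caspase-1 then processes interleukin-1 family cytokines, and the protein of mouse Casp4 answers intracellular bacterial lipopolysaccharide. The apoptotic caspases act in a chain: initiators such as those encoded by Casp8 (death receptors) and Casp9 (the apoptosome, after mitochondria release cytochrome c) activate executioners such as that of Casp6. Most of this control acts on the protein, so transcript levels give the supply of precursor and not caspase activity, which was not measured.

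Array medians lay between 5.72 and 5.78. Wild-type replicate 2 stood apart, with 261 genes 2-fold or more away from the remaining arrays of its line, whereas this held for 22 genes in replicate 1, for 54 in replicate 3 and for no more than 2 in any heterozygous array. Sox10, the targeted gene, had 9.91 ± 0.10 in the wild type and 9.73 ± 0.05 in the heterozygous line (SD, n = 3 each), a difference of −0.18 that did not pass (limma, adjusted p 0.213). Where its probe set lies relative to the replaced part of the gene is not known here, so whether this signal can check the labelled genotype was not tested. Cdkn2a was not dim in either line, with 7.16 ± 0.12 in the wild type and 7.07 ± 0.08 in the heterozygous line (limma, adjusted p 0.61), and whether its probe set lies within the mutated part is likewise not known here. Of 11 measured melanocyte markers, 0 were dim in both lines (a log2 signal under 5.20, the 40th percentile over the probe sets), with 2 higher and 4 lower in the heterozygous line. Of 10 fibroblast markers 4 rose, 0 fell and 6 did not pass. Their mean level per array was 6.14 to 6.19 in the wild type and 7.70 to 7.71 in the heterozygous line. Those that rose were Dcn (by 5.92), Pdgfrb (4.08), Fbln1 (3.18) and Col1a2 (1.24), the last on chromosome 6. The part of these marker differences in the results below was not tested.

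The 3 inflammatory genes lie side by side on mouse chromosome 9 (GRCm38.p6), in the order Casp1 (5298517 to 5307281), Casp4 (5308849 to 5336791) and Casp12 (5345442 to 5373034). The gaps are 1567 and 8650 bases, and the whole cluster spans 74518 bases. The 250 bases before a listed transcript start of each were searched, from RefSeq on that build and plus strand, and are shown because these neighbours were lower together. Casp4 has another listed start close by, and its first was used. The listed start of Casp12 lies inside the gene's annotated span, and the last 34 bases of its window, which fall within that span, are not printed. Capitals mark matches, on either strand, to the 9 motifs named after the sequences.
Casp1, chr9:5298267-5298516: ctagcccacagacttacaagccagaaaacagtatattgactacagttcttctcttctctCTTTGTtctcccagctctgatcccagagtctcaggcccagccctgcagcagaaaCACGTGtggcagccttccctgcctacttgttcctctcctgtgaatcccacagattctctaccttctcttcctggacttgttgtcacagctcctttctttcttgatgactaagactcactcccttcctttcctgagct
Casp4, chr9:5308599-5308848: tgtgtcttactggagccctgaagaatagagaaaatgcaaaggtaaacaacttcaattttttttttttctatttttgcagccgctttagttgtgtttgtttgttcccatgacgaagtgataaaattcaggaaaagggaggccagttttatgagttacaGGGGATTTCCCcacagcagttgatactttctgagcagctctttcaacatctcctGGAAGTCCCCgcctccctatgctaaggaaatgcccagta
Casp12, chr9:5345226-5345441: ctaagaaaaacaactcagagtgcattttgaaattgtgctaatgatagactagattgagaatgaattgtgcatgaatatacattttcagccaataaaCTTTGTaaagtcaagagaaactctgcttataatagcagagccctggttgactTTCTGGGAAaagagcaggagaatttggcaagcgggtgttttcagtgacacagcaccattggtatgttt
The motifs searched were the SOX cores ACAAAG and ACAATG, the E-boxes CACGTG and CATGTG, the AP-1 site TGANTCA, the cAMP response element TGACGTCA, the gamma-activated site TTCNNNGAA, the interferon-stimulated response element (GAAA, any 2 bases, GAAA) and the NF-kB site. Casp1 held the SOX core ACAAAG on its minus strand and, closer to the start, the E-box CACGTG. Casp12 also held ACAAAG on the minus strand and the gamma-activated site at 2 places, the second of which runs past the printed end. Casp4 held the NF-kB site, with 2 overlapping matches on the plus strand and 1 on the minus strand closer to the start, and none of the other motifs. Over 32851 RefSeq windows of the same length, 16.5% held ACAAAG, 6.02% held CACGTG, 7.02% the gamma-activated site and 7.25% the NF-kB site. A match is only a run of letters, and factor binding was not measured.

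These 3 promoters were poor in CG dinucleotides, with 1 in Casp1, 3 in Casp4 and 1 in Casp12, against a median of 6 over all windows. The apoptotic genes were mixed: Casp9 had 25, Casp2 17, Casp6 11 and Casp8 5, and the window of Casp14 had 8. Only Casp8 of the apoptotic members thus lay below the median, and its window lies wholly inside the annotated gene. Of the windows of Casp2 and Casp14, 83 and 54 bases do. Of the apoptotic genes, Casp6 held the SOX core ACAAAG and Casp9 the E-box CATGTG (16.5% and 12.3% of all windows), while the windows of Casp2 and Casp8 held none of the 9 motifs, nor did that of Casp14.

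All 3 inflammatory caspase genes were lower in the heterozygous line, by 11.5-fold for Casp1, 9.07-fold for Casp4 and 2.81-fold for Casp12. All 4 apoptotic genes were higher, by at most 1.59-fold (Casp2). The median difference was −3.18 over the inflammatory and 0.27 over the apoptotic members, beside 0.001 over all 22180 genes. Casp14 differed by −0.06. In 7 of the 8 members the lines shared no range of values, which was so for 31.6% of all genes, and 4 of the 8 were past the threshold used for all genes (limma, Benjamini-Hochberg adjusted p below 0.05), 3 lower and 1 higher. Over all genes 13.4% were past it, 5.92% lower and 7.46% higher. The members were listed with this contrast known, so nothing is read from these counts. Without wild-type replicate 2, 6 members were past the threshold (Casp6 and Casp8 in addition), and so were 19% of all genes. With any other single array left out 3 members were, Casp12 being the one that dropped out, beside 7.97% to 11% of all genes.

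**Figure D1:**
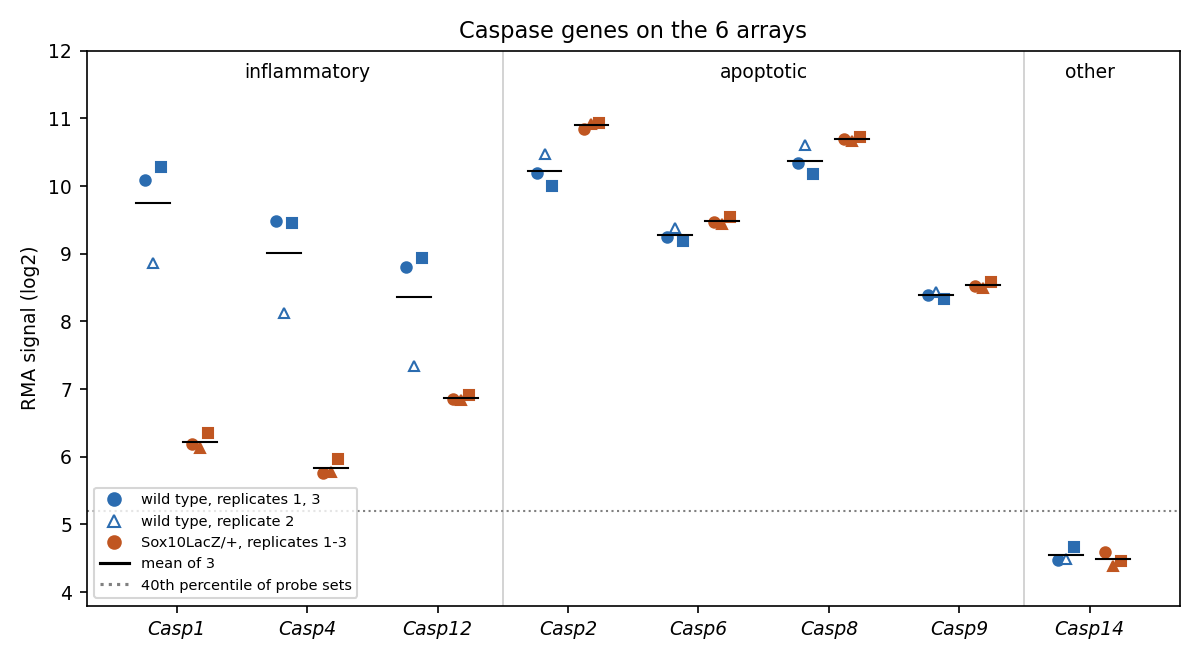
RMA signal (log2) of the 8 caspase genes on each of the 6 arrays, wild type in blue and heterozygous (Sox10LacZ/+) in orange, with black bars for the mean of 3 and a dotted line at the 40th percentile of all probe sets. The open triangle is wild-type replicate 2, which lies below the other wild-type arrays in Casp1, Casp4 and Casp12 and above them in Casp2, Casp6, Casp8 and Casp9.

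Casp1 (Entrez 12362) encodes the caspase that matures interleukin-1 beta. Its wild-type arrays read 10.09, 8.86 and 10.29 for replicates 1, 2 and 3, and the heterozygous arrays 6.19, 6.12 and 6.36. Every heterozygous array was thus below every wild-type array, by 2.51 between the nearest of the lines, and the wild-type spread came almost wholly from replicate 2. The means were 9.75 ± 0.77 and 6.22 ± 0.12 (SD, n = 3 each), a difference of −3.52 (SE 0.33, 95% confidence interval −4.28 to −2.77). By size of difference Casp1 ranked 57 among all genes.

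Casp4 (Entrez 12363) encodes the sensor caspase for lipopolysaccharide in the cytosol. It read 9.48, 8.12 and 9.45 in the wild type and 5.76, 5.77 and 5.97 in the heterozygous line. The lines were apart by 2.15 at the nearest arrays, and wild-type replicate 2 was again the low array of its line. The means of 9.02 ± 0.78 and 5.84 ± 0.12 gave a difference of −3.18 (SE 0.33, 95% confidence interval −3.95 to −2.42), ranked 83.

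Casp12 (Entrez 12364), whose product is associated with the endoplasmic reticulum and with dampening of inflammasome signalling, read 8.81, 7.34 and 8.94 in the wild type and 6.86, 6.84 and 6.91 in the heterozygous line. Here the nearest arrays were only 0.42 apart. The means were 8.36 ± 0.89 and 6.87 ± 0.04, a difference of −1.49 (SE 0.37, 95% confidence interval −2.35 to −0.63), ranked 447. Casp1, Casp4 and Casp12 are related in sequence and probe sequences were not used here, so signal shared between their probe sets was not tested. None of the 3 was dim in the heterozygous line, whose lowest array for any of them, 5.76, lay above the 5.20 limit. That limit is a percentile and not a measure of background. The heterozygous means of Casp4 and Casp1 lay at percentiles 51.9 and 58.0 of all probe set signals of that line. Whether they stood above background, and whether background limits these fold differences, was not tested.

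**Figure D2:**
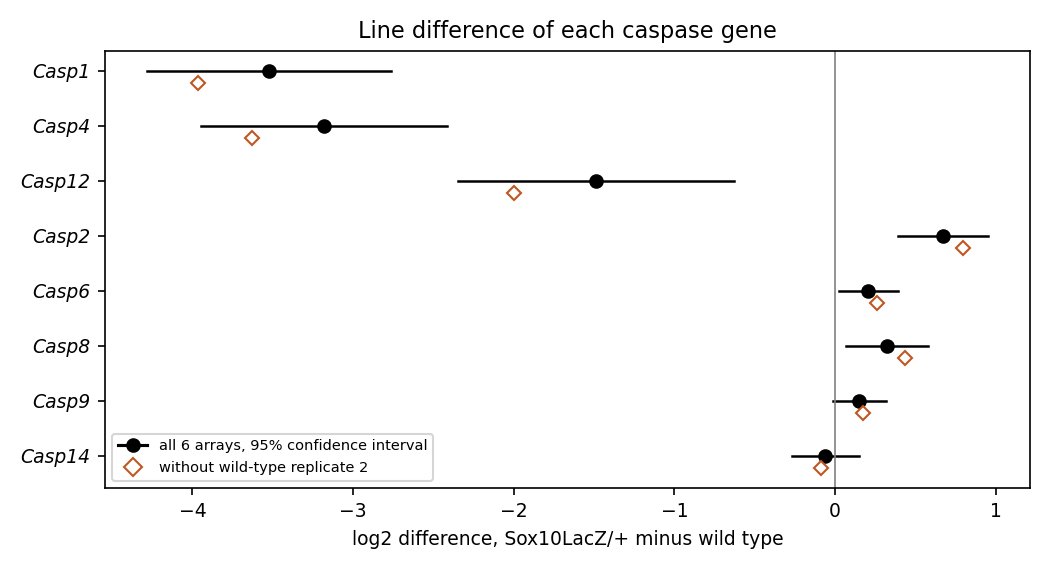
Log2 difference of each caspase gene, heterozygous minus wild type, from limma on all 6 arrays with its 95% confidence interval (black), and the difference of means without wild-type replicate 2 (open orange diamonds). The inflammatory genes sit between −3.52 and −1.49 and the apoptotic genes between 0.15 and 0.67; leaving out that array moves each of these 7 further from 0.

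Among the apoptotic initiators, Casp2 (Entrez 12366; chromosome 6, 42264902 to 42282508), whose protein acts in the PIDDosome after genotoxic or mitotic stress, had the largest difference. It read 10.20, 10.48 and 10.00 in the wild type and 10.85, 10.91 and 10.93 in the heterozygous line. The lines were 0.37 apart at the nearest arrays, the wild-type one being replicate 2. The means were 10.22 ± 0.24 and 10.90 ± 0.04, a difference of 0.67 (SE 0.12, 95% confidence interval 0.39 to 0.95). Chromosome 6 as a whole was higher in the heterozygous line: over its 710 genes that were not dim the median difference was 0.24 and 74.1% were above 0, against medians of −0.03 to 0.03 on the other autosomes. The part of this in the difference of Casp2 was not tested; the other members lie on chromosomes 1, 3, 4, 9 and 10.

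Casp8 (Entrez 12370; chromosome 1, 58795233 to 58847503), the initiator at death receptors and a brake on necroptosis, read 10.34, 10.60 and 10.18 in the wild type and 10.69, 10.67 and 10.73 in the heterozygous line. Its difference was 0.32 (SE 0.11, 95% confidence interval 0.07 to 0.58), with means of 10.37 ± 0.21 and 10.70 ± 0.03. Wild-type replicate 2 lay only 0.07 below the nearest heterozygous array. Casp9 (Entrez 12371; chromosome 4, 141793612 to 141815978), the apoptosome initiator, read 8.39, 8.43 and 8.33 against 8.52, 8.501 and 8.59, a difference of 0.15 (SE 0.07, 95% confidence interval −0.01 to 0.31). The arrays of Casp9 did not overlap, but the interval included 0.

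Casp6 (Entrez 12368; chromosome 3, 129901415 to 129914112), an executioner that cuts nuclear lamin A, read 9.25, 9.38 and 9.19 in the wild type and 9.46, 9.44 and 9.54 in the heterozygous line. The gap between the nearest arrays, 0.06, was smaller than the wild-type SD of 0.10, and the difference was 0.21 (SE 0.08, 95% confidence interval 0.02 to 0.39). Casp14 (Entrez 12365; chromosome 10, 78711995 to 78718347), which processes filaggrin in the epidermis and does not take part in apoptosis, read 4.48, 4.49 and 4.66 against 4.60, 4.39 and 4.47. It was dim on all 6 arrays, the arrays of the lines overlapped, and the difference of −0.06 (95% confidence interval −0.27 to 0.15) was within the spread.

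Wild-type replicate 2 deviated in opposite directions in the caspase classes. It was below the mean of wild-type replicates 1 and 3 in the inflammatory genes (−1.33 for Casp1, −1.35 for Casp4 and −1.53 for Casp12), where its shift was larger than that of 99.5%, 99.5% and 99.7% of all genes, whereas replicates 1 and 3 differed from each other by at most 0.19 in these genes. In Casp2, Casp8, Casp6 and Casp9 it was above that mean by 0.38, 0.35, 0.16 and 0.07. In all 8 members it was displaced towards the heterozygous mean. The share of the way to it was 33.4% for Casp1, 37.1% for Casp4 and 76.7% for Casp12, and between 38.8% (Casp9) and 95.7% (Casp14) in the others. In Casp14, which was dim, the whole way was −0.09, smaller than the 0.18 between wild-type replicates 1 and 3. Its direction and share are thus within the spread. The shift of wild-type replicate 2 and the way to the heterozygous mean both start from the mean of wild-type replicates 1 and 3. Noise in that shared mean alone favours the same direction, in the members and over all genes. Its part in these shares was not tested. Over all genes 64.2% were displaced towards the heterozygous mean by wild-type replicate 2, with a median share of the way of 41.5%. Of the 261 genes in which this array was 2-fold or more away, 67.8% were, with a median of 79.8%. Of the 860 genes with at least 2-fold between the heterozygous mean and wild-type replicates 1 and 3, 64.1% were, with a median of 9.31%. Without this array the differences were −3.97 for Casp1, −3.63 for Casp4, −2.001 for Casp12, 0.80 for Casp2 and 0.44 for Casp8.

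Partners of the caspases, which the choice of members did not use, were tested in the fit over all genes. Their lists were drawn up with earlier results of these data known, so the share that passed is given as a description. The lists covered 140 genes, of which 129 were measured: 7 rose, 13 fell and 109 did not pass, so 15.5% passed, 5.43% higher and 10.1% lower, beside 13.4%, 7.46% and 5.92% of all genes. Their median difference was −0.01. Without wild-type replicate 2, 35 passed (27.1%, beside 19% of all genes). Without wild-type replicate 1 or 3, 14 and 17 passed (10.9% and 13.2%, beside 9.54% and 11%), and without heterozygous replicate 1, 2 or 3, 13 passed (10.1%, beside 7.97% to 8.19%). Of the 20, 12 passed with any single array left out (3 higher, 9 lower), and adjusted p-values here are limma's with Benjamini-Hochberg adjustment.

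**Figure D3:**
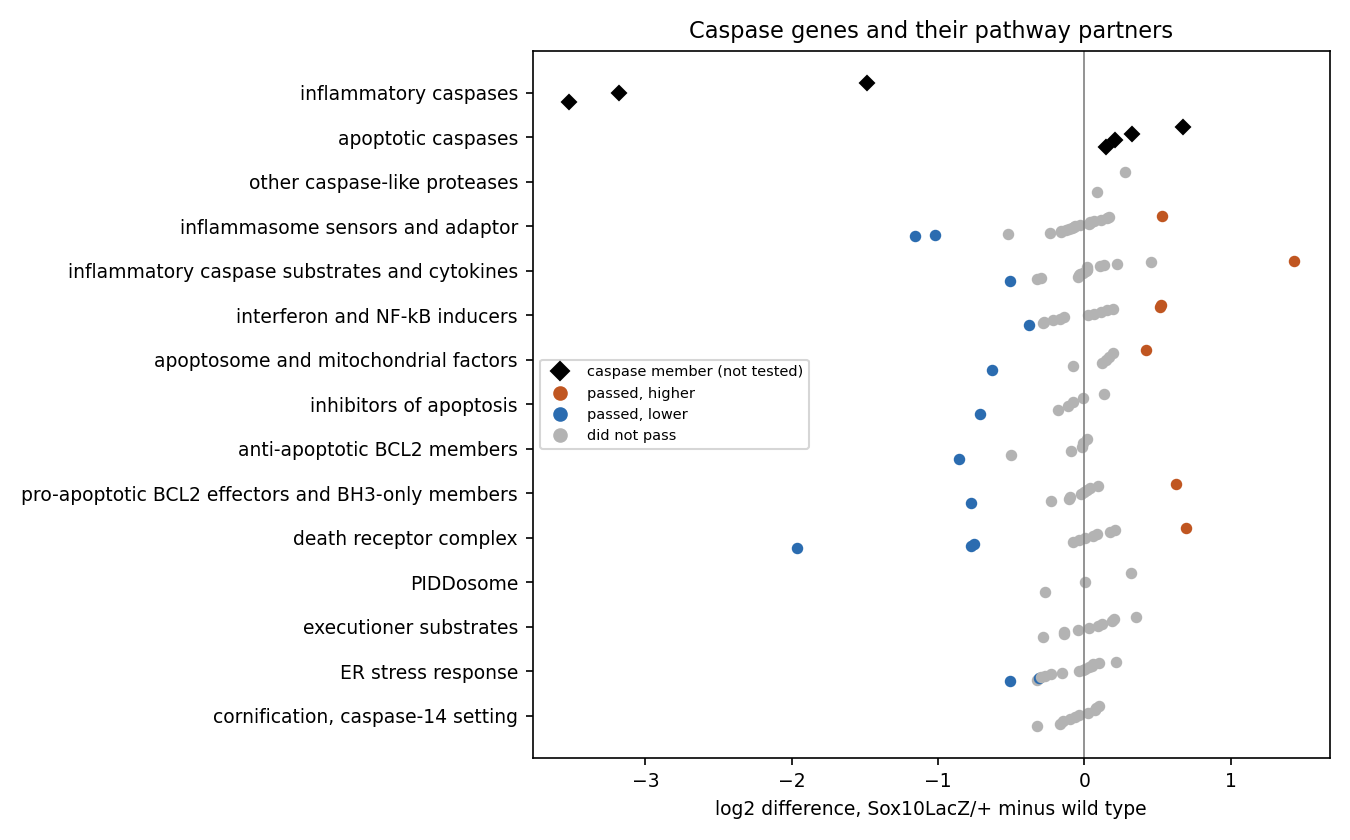
Log2 difference, heterozygous minus wild type, of the caspase members (black diamonds, not tested) and of 129 partner genes by list (circles: orange passed and higher, blue passed and lower, grey did not pass; vertical spacing within a row only separates points). The lowest partner is Tnfrsf10b at −1.96 and the highest is Il33 at 1.43, and most points of every list lie near 0.

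Of 20 inflammasome sensor and adaptor genes, 2 fell and 1 rose, and 12 were dim in both lines. Pycard, which encodes the adaptor ASC that links sensors to caspase-1, read 7.76, 7.91 and 7.55 in the wild type and 6.85, 6.73 and 6.58 in the heterozygous line. The arrays did not overlap, and it fell by 1.02 on the log2 scale (SE 0.11, adjusted p 0.000655), with wild-type replicate 2 its highest wild-type array rather than the lowest. Naip2, a sensor gene for bacterial secretion system proteins, differed by −1.15 (SE 0.15, adjusted p 0.00183), from 5.19 ± 0.33 to 4.03 ± 0.09. Both means are dim, and Naip2 is not among the genes tested once dim genes are left out. Gbp7, an interferon-induced guanylate-binding protein gene, rose by 0.53 (adjusted p 0.0108; 0.0533 without heterozygous replicate 3).

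Of 16 genes listed around the inflammatory caspases, 1 rose, 1 fell and 10 were dim in both lines. They were interleukin-1 family cytokine genes, genes for inhibitors of these cytokines, gasdermin genes and Ninj1. The list is thus not limited to substrates of the inflammatory caspases. Il33, an alarmin cytokine gene that caspases can inactivate, read 6.89, 7.87 and 7.06 in the wild type and 8.70, 8.77 and 8.64 in the heterozygous line. It rose by 1.43 (SE 0.23, adjusted p 0.00449), and wild-type replicate 2 was its high wild-type array. Gsdme, a gasdermin gene on chromosome 6 whose product forms membrane pores after caspase cleavage, differed by −0.51 (SE 0.08, adjusted p 0.00528). Il1b (4.62 against 4.72, wild type first), Il18 (4.24 against 4.25) and Gsdmd (5.67 against 5.69), the classical targets, were singled out after their values were seen and did not pass; both cytokine genes were dim.

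Regulators that raise inflammatory caspase transcription in other cells were also measured. Of 13 genes of the interferon and NF-kB list, 2 rose and 1 fell. The receptor genes Ifnar1 and Ifngr2 rose by 0.52 (SE 0.07, adjusted p 0.00241) and 0.51 (SE 0.07, adjusted p 0.00288). Nfkb2 differed by −0.38 (adjusted p 0.0258) but did not pass if wild-type replicate 1 or a heterozygous array was removed (up to 0.101).

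Leukocytes express inflammatory caspases strongly, and their markers were measured beside these genes. Of 14, Cd68 rose by 1.32 (adjusted p 0.000151) and Fcer1g by 0.36 (adjusted p 0.0396; up to 0.143 if wild-type replicate 1 or a heterozygous array was removed), and 0 fell. By limma 4 had an unadjusted p below 0.05, the others being Cd3e (−0.35, adjusted p 0.0517) and Laptm5 (−0.25, adjusted p 0.144), both lower. Lyz2 differed by −0.42 (adjusted p 0.34), with wild-type replicate 2 its low wild-type array. Cd3e, Laptm5 and Lyz2 are named after their values were seen. With single arrays left out, up to 1 marker passed and was lower. The mean level of the list per array was 5.26 to 5.31 in the wild type and 5.32 to 5.34 in the heterozygous line, and 7 were dim in both lines. Ptprc, which defines leukocytes (CD45) and was singled out after its value was seen, read 3.907 in the wild type and 4.004 in the heterozygous line, both dim.

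Partners of the apoptotic caspases had calls in both directions. The higher calls, of Mlkl, Htra2 and Bid, were each lost on removal of any 1 of 5 arrays. The calls kept with every single array left out were all lower. Of 11 death receptor complex genes, 3 fell and 1 rose. Tnfrsf10b, the TRAIL receptor gene upstream of Casp8, read 9.98, 10.24 and 9.96 in the wild type and 8.026, 8.002 and 8.268 in the heterozygous line, a fall of 3.90-fold (log2 difference −1.96, SE 0.11, adjusted p 1.22e-05). Cyld, a deubiquitinase gene of this complex, and Ripk3, the necroptosis kinase gene, differed by −0.77 (SE 0.09, adjusted p 0.000912) and −0.75 (SE 0.08, adjusted p 0.000531). Mlkl, the pore gene downstream of Ripk3, rose by 0.69 (adjusted p 0.0298), but not on removal of any 1 of the 5 arrays besides wild-type replicate 2 (up to 0.117).

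Of 7 apoptosome and mitochondrial genes, Diablo, whose protein releases caspases from their inhibitors, differed by −0.63 (SE 0.08, adjusted p 0.00177). Htra2, a mitochondrial protease gene also on chromosome 6, rose by 0.42 (adjusted p 0.046), but not on removal of any 1 of those 5 arrays (up to 0.154). The other 5 did not pass, among them Apaf1, the apoptosome scaffold gene beside Casp9 (0.20, adjusted p 0.123), named after its value was seen. Of 6 inhibitor of apoptosis genes, Birc3 differed by −0.72 (SE 0.07, adjusted p 0.000296) and 5 did not pass. Birc3 lies on chromosome 9 (7847468 to 7873205), past the neighbours of the inflammatory caspase genes given below.

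Of 6 anti-apoptotic BCL2 genes, Bcl2l1 (BCL-XL) differed by −0.86 (SE 0.12, adjusted p 0.00226) and 5 did not pass. Of 10 pro-apoptotic BCL2 genes, Bid, a substrate of caspase-8 that lies on chromosome 6, rose by 0.63 (adjusted p 0.0229), and Bcl2l11 (BIM) differed by −0.77 (adjusted p 0.0245). Neither passed on removal of any 1 of those 5 arrays (up to 0.0915 and 0.0942).

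Partners of Casp2, of the executioners and of Casp14 were measured in 3 lists. Of 3 PIDDosome genes 0 passed by limma (2 at an unadjusted p below 0.05), though 1 did in 5 of 16 alternatives, among them median centring and quantile normalisation. Cradd, the adaptor gene that binds caspase-2, came nearest, at 0.32 (SE 0.09, adjusted p 0.0596), and is named after its value was seen. Mdm2, the p53 ligase gene whose product caspase-2 cuts, was at −0.27 (adjusted p 0.111) and Pidd1, the scaffold gene, at 0.002. Of 10 executioner substrate genes 0 passed by limma (4 at an unadjusted p below 0.05; 1 passed in 4 of 16 alternatives), with the lamin gene Lmna at −0.14 and the kinase gene Pak2 at 0.03. Of 10 cornification genes around Casp14, 0 passed by limma (1 at an unadjusted p below 0.05; 1 passed with dim genes left out), with Krt10 at −0.15 and Klk7 at 0.10. Of the caspase-like genes Cflar, the catalytically dead homologue that restrains Casp8, differed by 0.09 and Malt1, the paracaspase gene, by 0.28 (adjusted p 0.676 and 0.46), and 0 of 2 had an unadjusted p below 0.05; Malt1 passed without wild-type replicate 2 (0.0116).

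Of 15 genes of the endoplasmic reticulum stress response, the setting in which Casp12 is best known, 2 fell and 13 did not pass. The chaperone gene Dnajb9 differed by −0.51 (adjusted p 0.0353) and the stress-induced gene Trib3 by −0.31 (adjusted p 0.0333). Dnajb9 did not pass if wild-type replicate 1 or a heterozygous array was removed (up to 0.134), and Trib3 did not on removal of any 1 of the 5 arrays besides wild-type replicate 2 (up to 0.135), nor after median centring of the arrays (0.065) or quantile normalisation (0.0626).

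Of the 5 measured genes nearest to the inflammatory caspases on each side on chromosome 9, 3 rose, 0 fell and 7 did not pass. Among all genes 7.46% rose and 5.92% fell. Gria4, a glutamate receptor gene 502283 bases before the cluster, read 6.79, 5.31 and 6.91 in the wild type and 7.78, 8.001 and 7.98 in the heterozygous line, so that wild-type replicate 2 was its low array, as in the caspase genes, while the heterozygous arrays were high. It rose by 1.58 (SE 0.38, adjusted p 0.0289) and lost its call without heterozygous replicate 1, 2 or 3 (0.0786, 0.102 and 0.0938). Pdgfd, a growth factor gene 795329 bases after the cluster, rose by 2.84 (SE 0.15, adjusted p 1.08e-05), and Dync2h1, a dynein gene of cilia, by 0.44 (SE 0.08, adjusted p 0.00695). Over the 814 genes of chromosome 9 that were not dim the median difference was −0.002, and 10.9% passed and were higher.

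**Figure D4:**
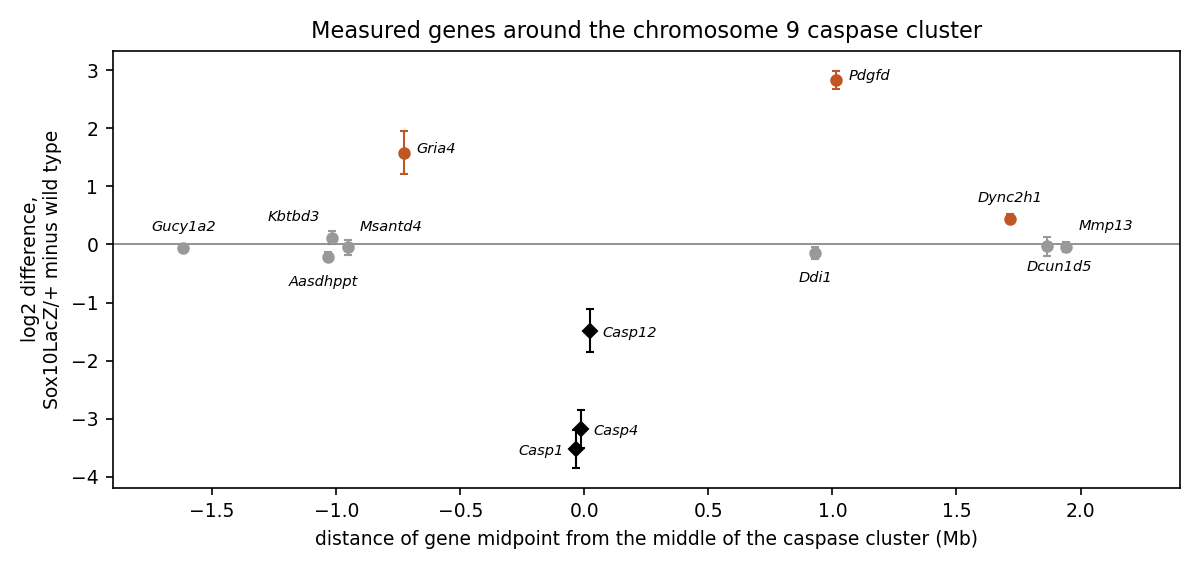
Log2 difference (heterozygous minus wild type, with SE bars) of Casp1, Casp4 and Casp12 (black diamonds, not tested) and of the 5 nearest measured genes on each side, against the distance in Mb of each gene's midpoint from the middle of the cluster. The caspase genes are the only points below −1; Gria4 at 1.58, Pdgfd at 2.84 and Dync2h1 at 0.44 (orange) passed and were higher, and the grey genes did not pass.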

How the data were processed

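The deposited values are log2 signals, made by the authors with RMA per the submitters' processing notes, which also name Partek; for their versions and settings, the sources used here give nothing. It covers 41345 probe sets on 6 arrays, and 0 pairs of arrays were identical. A single gene symbol was listed for 23521 of them and several for 1814, and 16010 had no entry in the annotation; the probe set with the highest mean over 6 arrays stood for a gene, leaving 22180 genes, with no filter on dim genes. Of the 140 listed partners, 11 had no such probe set.

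The comparison of the lines used limma 3.58.1 under R 4.3.3 (lmFit, eBayes, 2-sided, Benjamini-Hochberg over all genes; 4 residual and 7.87 total degrees of freedom), checked on simulated data. The simulated noise was independent between genes and arrays, with no array set apart. Calls under an array like wild-type replicate 2 were thus not checked. An array gives no counts, so the number of arrays limits the precision. The labels' replicate numbers were not used as a block, since deviations of same-numbered arrays did not correlate (r of 0.007, 0.016 and −0.004).

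Members and lists were chosen with earlier results of these data known. Named were the members, Sox10 and Cdkn2a, up to 4 passing genes of each list by size or else the 2 brightest, the 3 genes nearest in centred profile to each inflammatory member and 5 neighbours on each side. Positions and promoters come from RefSeq, GRCm38.p6. Alternatives were median centring, quantile normalisation, dim genes left out, probe set means, a replicate block, other eBayes settings, array weights, other thresholds and each array left out.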

Additional observations from a re-analysis of the deposited data

How the results depend on the processing

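With single arrays left out, the members' differences ranged from −3.97 to −3.25 for Casp1, −3.63 to −2.95 for Casp4, −2.001 to −1.20 for Casp12, 0.56 to 0.80 for Casp2, 0.16 to 0.26 for Casp6, 0.23 to 0.44 for Casp8 and 0.12 to 0.17 for Casp9. Under median centring, quantile normalisation, dim genes left out, probe set means and the replicate block they lay between −3.52 and −3.49 for Casp1, −3.18 and −3.15 for Casp4, −1.499 and −1.46 for Casp12 and 0.67 and 0.70 for Casp2. Casp14 gave no value with dim genes left out. With the replicate block, 2512 genes and 19 partner genes passed, against 2967 and 20; Htra2 (adjusted p 0.0573), Nfkb2 (0.0561), Trib3 (0.065) and Fcer1g (0.0708) lost their calls and Wfdc1 (0.00887) gained one; no other named call changed. At an adjusted p below 0.01, 1588 genes and 12 partner genes passed, and with a 2-fold threshold on top 782 and 4. With single arrays left out, 1768 to 4222 genes and 13 to 35 partner genes passed. Under the other alternatives 2941 to 3942 genes and 20 to 27 partner genes passed. Differences near 0 changed sign in 6 named genes. With array weights Pidd1 became −0.023 and Dcun1d5 0.011. With single arrays left out the ranges were −0.036 to 0.028 for Pidd1, −0.14 to 0.18 for Dcun1d5, −0.21 to 0.087 for Sfn, −0.11 to 0.033 for Mmp13, −0.012 to 0.16 for Cflar and −0.18 to 0.10 for Msantd4; the cause was not tested. Signals near the array background, such as that of Casp14, limit what can be seen.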

Other observations

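All other measured genes were ranked by how closely their profile over the 6 arrays, centred on each gene's own mean, followed an inflammatory caspase gene. This is a description of 6 arrays of 2 lines, without a test. Closest to Casp1 was its neighbour Casp4 (Euclidean distance 0.45 on the log2 scale), followed by Matn2, an extracellular matrix protein gene (0.49), and Cpq, a carboxypeptidase gene (0.72). Matn2 read 10.65, 9.84 and 10.79 in wild-type replicates 1, 2 and 3 and 6.81, 6.79 and 6.66 in the heterozygous line. Closest to Casp4 were Casp1, the endosomal GTPase gene Rab7b (0.47) and Cpq (0.55).

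The nearest profiles to Casp12 were those of Klhl30 (0.23), Gdpd5, a phosphodiesterase gene (0.28), and Wfdc1, a protease inhibitor-like gene (0.36), and neither Casp1 nor Casp4 was among the 3. Klhl30 read 10.10, 8.40 and 9.93 in the wild type and 7.978, 8.003 and 7.985 in the heterozygous line. Wild-type replicate 2 was the low wild-type array in Matn2, Cpq, Rab7b, Klhl30, Gdpd5 and Wfdc1, as in the caspase genes they were matched to.

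Of 11 keratinocyte markers, measured because Casp14 belongs to the epidermis, 0 passed by limma (2 at an unadjusted p below 0.05) and 8 were dim in both lines; the differences were −0.06 for Sfn and 0.38 for Cdh1 (adjusted p 0.0632, and 0.0101 without wild-type replicate 2, 0.0472 with dim genes left out and 0.0146 with array weights). Of 8 endothelial markers Vwf, on chromosome 6, rose by 0.38 (adjusted p 0.0194; up to 0.0923 without wild-type replicate 1 or heterozygous replicate 2 or 3).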
